A study of Mus musculus with 12 samples.

Results

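Some binding sites of c-Fos in hippocampal CA1 nuclei tagged through CaMK2a-Cre lay in short runs of neighbouring peaks, and these runs are described here. After kainic acid, 3295 peaks were listed for c-Fos against IgG, and 3294 of them lay on chromosomes 1 to 19 and X. A peak was counted as clustered when the midpoint of another peak lay within 12.5 kb on the same chromosome, and clustered neighbours were chained. By this rule 455 peaks (13.8%, exact 95% binomial interval 12.7 to 15.0) formed 204 clusters, and the other 2839 are called isolated. The members were chosen by their own measured positions, so their closeness, number and spans are descriptions and support nothing.

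The mice were C57BL/6, 3 to 4 weeks old, and all carried CaMK2a-Cre/+ and LSL-Sun1-GFP/+, in which Cre from the CaMK2a promoter switches on a green nuclear envelope tag, mainly in excitatory forebrain neurons. They were given kainic acid, an agonist of glutamate receptors that drives seizures, or the saline vehicle labelled PBS, and CA1 was taken 2 to 3 h later. Tagged nuclei were sorted, and 50000 per reaction entered CUT&RUN, in which an antibody guides a nuclease to cut out bound DNA, with a c-Fos antibody or rabbit IgG. The 12 samples made 4 groups of 3 (c-Fos and IgG, each after kainic acid and after PBS), and the number of animals behind each sample is unknown here. The peak list covers c-Fos against IgG after kainic acid as a whole. It holds no score, no value per library and no read depth, so there is no spread between replicates, and peaks after PBS were not analysed here. Markers of the labelled cell type could not be checked for expression in such a list; peaks near marker genes are given below.

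c-Fos is the product of an immediate early gene. It pairs with Jun proteins to form AP-1, which binds the short palindrome TGANTCA, most often in enhancers away from gene starts. In neurons this factor appears after strong firing and acts on genes of secreted factors, synapses and signalling. Regulatory elements of strongly regulated genes often lie in groups, with several elements spread over some kilobases.

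Promoter sequences are shown for the 4 starts that lay under a clustered peak and held a motif letter for letter before the start, because there the sequence under a clustered peak can be read. They are 250 bases before an annotated start, 5′ to 3′ on the gene's strand, from RefSeq (GRCm38.p6, the assembly that mm10 represents), with the motif in capitals. Scg2 encodes the neuropeptide precursor secretogranin II (chr1:79440027-79440276, minus strand). D730003I15Rik, whose function is not known, starts within the cluster upstream of Atf3 (chr1:191224204-191224453, plus). Gm33045 (chr13:110627722-110627971, plus) and Gm35431 (chr2:77765012-77765261, plus, within the extent of Zfp385b) are provisional gene models.
Scg2: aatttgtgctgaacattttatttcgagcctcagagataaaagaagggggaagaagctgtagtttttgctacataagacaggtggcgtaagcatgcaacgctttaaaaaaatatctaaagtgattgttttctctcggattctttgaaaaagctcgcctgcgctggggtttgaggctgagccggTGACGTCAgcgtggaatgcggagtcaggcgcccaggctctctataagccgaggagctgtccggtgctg
D730003I15Rik: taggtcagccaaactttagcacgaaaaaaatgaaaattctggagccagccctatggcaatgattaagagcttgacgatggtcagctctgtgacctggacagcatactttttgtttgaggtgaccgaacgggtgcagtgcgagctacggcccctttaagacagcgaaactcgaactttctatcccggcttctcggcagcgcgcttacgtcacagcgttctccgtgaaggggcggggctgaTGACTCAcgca
Gm33045: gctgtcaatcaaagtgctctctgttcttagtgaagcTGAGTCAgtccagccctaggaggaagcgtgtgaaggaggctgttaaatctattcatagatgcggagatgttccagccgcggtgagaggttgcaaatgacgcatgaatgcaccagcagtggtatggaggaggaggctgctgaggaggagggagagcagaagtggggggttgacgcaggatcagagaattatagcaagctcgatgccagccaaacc
Gm35431: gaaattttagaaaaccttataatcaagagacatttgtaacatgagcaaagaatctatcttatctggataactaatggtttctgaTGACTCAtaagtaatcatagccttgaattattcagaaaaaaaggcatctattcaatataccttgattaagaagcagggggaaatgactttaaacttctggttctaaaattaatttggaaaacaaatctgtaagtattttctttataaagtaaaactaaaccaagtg

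In the Scg2 promoter the capitals mark TGACGTCA, the cAMP response element, 68 bases before the start. The other 3 hold the AP-1 palindrome, as TGACTCA 11 bases before the start of D730003I15Rik, TGAGTCA 214 bases before that of Gm33045 and TGACTCA 166 bases before that of Gm35431. Each of these motifs lay within the clustered peak. In all, 22 clustered peaks overlapped 26 promoter windows (250 bases before to 50 after a start) of 25 genes. TGANTCA, read on both strands since it is its own reverse complement, occurred in 4 of these 26 windows (15.4%, exact interval 4.36 to 34.9), counting a TGAATCA that began 15 bases into the transcript of Trim9, which encodes a ubiquitin ligase of neurons. It occurred in 55 of 312 windows under isolated peaks (17.6%) and in 2559 of all 32619 windows (7.85%). TGACGTCA, which does not overlap TGANTCA, occurred in 1 of 26, 24 of 312 (7.69%) and 588 of all windows (1.80%). With 26 windows the interval spans all 3 shares of TGANTCA, and a match of letters is a description, not a bound site. The interval treats windows as independent, although some overlap and those of Gm44505 and Zfp91 are the same. The windows also differed in composition, with a median GC content of 52.2% under clustered peaks, 59.2% under isolated peaks and 52.4% over all windows. The median number of CpG dinucleotides was 12.5, 16 and 6 in the same order. The part of composition in these shares was not tested.

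Near the limit of the rule, the last neighbours counted were 2 peaks 12.5 kb apart inside Slc24a2 (12466 bp between midpoints) and 2 peaks inside Lrrk2 12.4 kb apart (12354.5 bp). The first pairs left out were 12.6 kb apart near Slc44a1 (12559.5 bp) and 12.8 kb apart near Fam72a (12767.5 bp). Of the isolated peaks, 66 had a neighbour within 15 kb and 288 within 25 kb, so the limit cuts through a continuous range of distances.

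**Figure D1:**
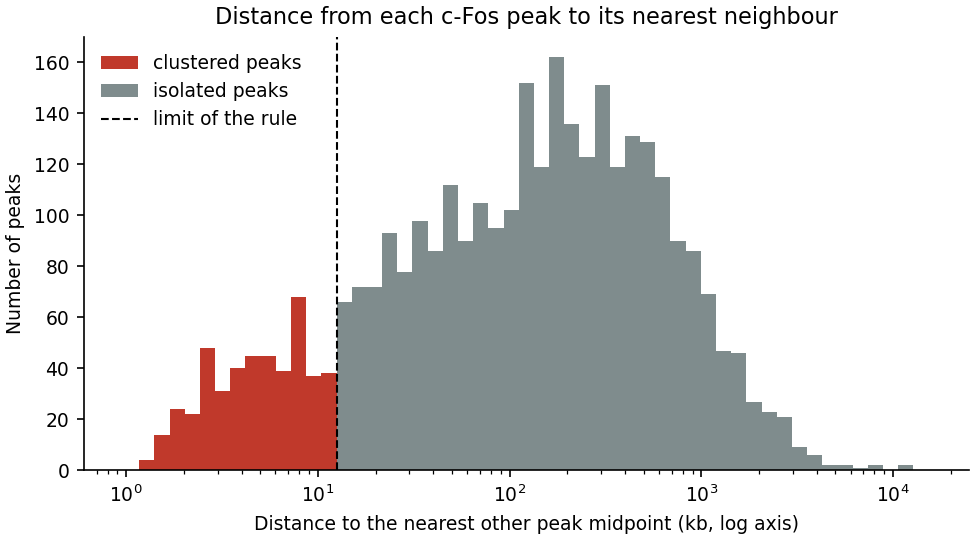
Histogram of the distance from each of the 3294 peaks to the nearest other peak midpoint (kb, log axis), with clustered peaks in red, isolated peaks in grey and the rule's 12.5 kb as a dashed line. The 455 red peaks lie left of the line by construction, and no gap in the distribution separates them from the 2839 grey ones.

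Most clusters were pairs. There were 168 pairs (82.4% of clusters), 26 clusters of 3 peaks, 9 of 4 and 1 of 5, so that 119 peaks sat in the 36 clusters of 3 or more. The median cluster spanned 7.99 kb from first start to last end (quartiles 5.33 and 11.1 kb, range 2.19 to 31.4 kb). Pairs had a median span of 7.16 kb, clusters of 3 had 13.8 kb and larger ones 16.7 kb. Peaks covered a median 44.7% of the span, from 16.8% to 98.2%.

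Midpoints of the 251 neighbouring pairs were a median 5235 bp apart (quartiles 3038.5 and 8095 bp). The DNA between the end of a peak and the start of the next had a median length of 3221 bp. In 27 of the 251 cases (10.8%) it was under 500 bp and in 10 under 200 bp. The shortest gap was 164 bp, found inside Shox2 and on chromosome 14 at 80124823 to 80129853. Whether such close neighbours are parts of a single bound stretch was not tested.

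Clusters were unevenly spread over chromosomes, and the X chromosome had none among its 21 peaks, which allows a share of up to 16.1% (exact interval). Chromosome 2 had the most clusters, 24, and chromosome 12 the fewest among autosomes, 2. The share of peaks that were clustered ran from 3.82% on chromosome 12 (5 of 131) to 25.0% on chromosome 15 (38 of 152, interval 18.3 to 32.7). Chromosome 17 followed with 20.3% (25 of 123), and 15 of its 25 clustered peaks were inside Dlgap1. The intervals treat peaks as independent, which members of the same cluster are not. Differences between chromosomes were not tested.

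Width was not used by the rule. Clustered peaks were 1511 bp wide in the median (quartiles 1200.5 and 1994.5 bp, range 624 to 6205 bp, n = 455), and isolated peaks 1320 bp (quartiles 1083 and 1653 bp, range 299 to 18691 bp, n = 2839). The interval of the median was 1443 to 1592 bp for clustered and 1304 to 1339 bp for isolated peaks. Of clustered peaks 112 (24.6%, interval 20.7 to 28.8) were 2 kb or wider, against 362 isolated peaks (12.8%, interval 11.5 to 14.0). The clustered median was the higher on 16 of 19 autosomes. These intervals treat peaks as independent, which members of the same cluster are not, and the difference itself was not tested.

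Median width was higher in larger clusters. It was 1451 bp in pairs (n = 336), 1658 bp in clusters of 3 (n = 78) and 1790 bp in clusters of 4 or 5 (n = 41). The intervals of the medians for the last 2 groups, 1424 to 1803 bp and 1535 to 2214 bp, overlap, and the order was not tested. Within a cluster the widest peak was a median 1.48 times the narrowest, and at least 2 times in 39 of 204 clusters.

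**Figure D2:**
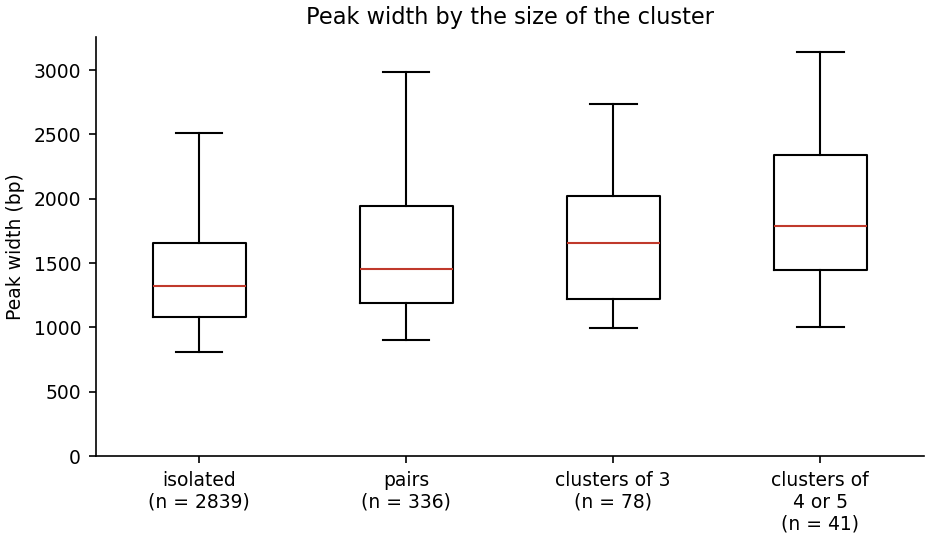
Peak width (bp) of isolated peaks and of peaks in pairs, in clusters of 3 and in clusters of 4 or 5; red lines are medians, boxes quartiles and whiskers the 5th and 95th percentiles over peaks. Medians are 1320, 1451, 1658 and 1790 bp, and the boxes overlap throughout.

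The only cluster of 5 peaks lay inside Syt1, the calcium sensor that triggers release of synaptic vesicles (chr10:108599989-108631347). Its peaks were 3645, 1376, 2958, 1976 and 2409 bp wide, and the gaps between them were 5825, 7936, 3516 and 1718 bp. At 31.4 kb it was also the longest cluster. It lay 395 kb into the gene from the annotated start, at 77.0% of the gene's length. A second Syt1 cluster had 4 peaks of 2048, 2815, 2029 and 2340 bp over 20.3 kb (chr10:108724970-108745232), and the third had 3 peaks of 1149, 1671 and 2366 bp over 14.9 kb (chr10:108654650-108669574). The 3 clusters fell within 145 kb of the 513 kb gene and took 12 of its 21 peaks.

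Dlgap1, a gene for a postsynaptic scaffold protein, held more clusters than any other gene. Its 5 clusters had 3, 2, 3, 4 and 3 peaks and took 15 of its 26 peaks. They began 35.5 kb from the gene start and were spread over 599 kb of 852 kb. The cluster of 4 (chr17:70378551-70389426) was compact: peaks of 2234, 2562, 1568 and 1314 bp were separated by 2289, 400 and 509 bp, so that peaks covered 70.6% of 10.9 kb. The pair (chr17:70169763-70173043) contained the narrowest clustered peak of all, at 624 bp.

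The remaining 7 clusters of 4 peaks were inside 6 different genes or outside genes. Magi2, another synaptic scaffold gene, had peaks of 1592, 1875, 870 and 1605 bp over 21.7 kb (chr5:20562268-20583951), 1354 kb from its start and near the far end of the gene. Ppp3ca encodes the catalytic subunit of calcineurin, the calcium-dependent phosphatase. Its cluster was the most densely covered of the large ones (73.0% of 11.6 kb, chr3:136825837-136837469), with peaks of 1445, 2157, 1751 and 3142 bp. In Nell2, which encodes a secreted neuronal glycoprotein, peaks of 1443, 2729, 5104 and 1375 bp covered 69.5% of 15.3 kb (chr15:95271441-95286767). Pla2g4a, the cytosolic phospholipase that releases arachidonic acid, had peaks of 2214, 2872, 1621 and 1535 bp (chr1:149861268-149877469).

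Narrower peaks made up the clusters of Myo16, an unconventional myosin gene (997, 1139, 1435 and 1286 bp, chr8:10534258-10548764), and Tmem117, a membrane protein gene (1512, 1805, 1120 and 1000 bp, chr15:94858567-94875818). The last cluster of 4 lay outside protein-coding genes on chromosome 16 (62635403 to 62654239), with peaks of 2395, 1790, 2338 and 1593 bp and its nearest gene end, of Nsun3, 79.0 kb away. So 9 of the 10 clusters of 4 or more peaks lay inside a protein-coding gene.

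**Figure D3:**
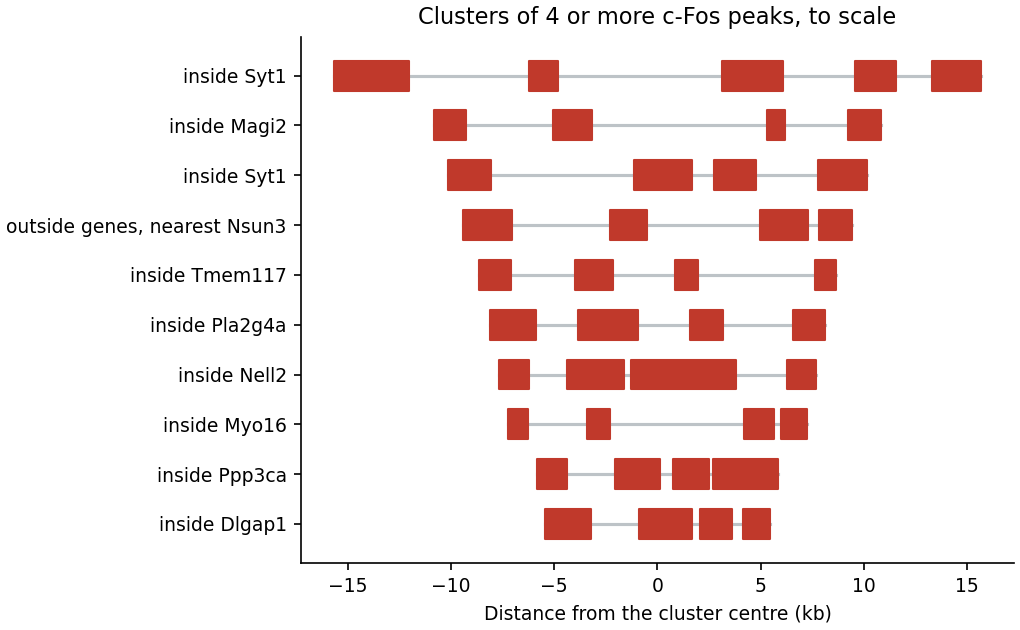
The 10 clusters of 4 or more peaks drawn to scale, with red bars for peaks, grey lines for the stretch between them and the x axis giving the distance from the cluster centre (kb). The Syt1 cluster of 5 peaks is the longest at 31.4 kb, and the Dlgap1 and Ppp3ca clusters are the most compact at 10.9 and 11.6 kb.

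Besides Dlgap1 and Syt1, 8 genes held 2 or more clusters. Myo3b, a class III myosin gene, had 3 clusters with 7 of its 8 peaks, all within 89.7 kb of a 390 kb gene. Magi2 and Nell2 each had a cluster of 4 and a pair. Celf2, an RNA-binding protein gene, had 2 pairs, with peaks 8.71 and 17.7 kb from the gene start in the first and 267.5 and 272.0 kb in the other. Grin2b, which encodes the GluN2B subunit of NMDA receptors, had 2 pairs within 94.6 kb and only 1 further peak. Msra, which repairs oxidised methionine, and Slc24a2, a potassium-dependent sodium/calcium exchanger gene, had 2 pairs each. The second pair of Slc24a2 (chr4:87206802-87219679) contained the widest clustered peak, at 6205 bp.

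**Figure D4:**
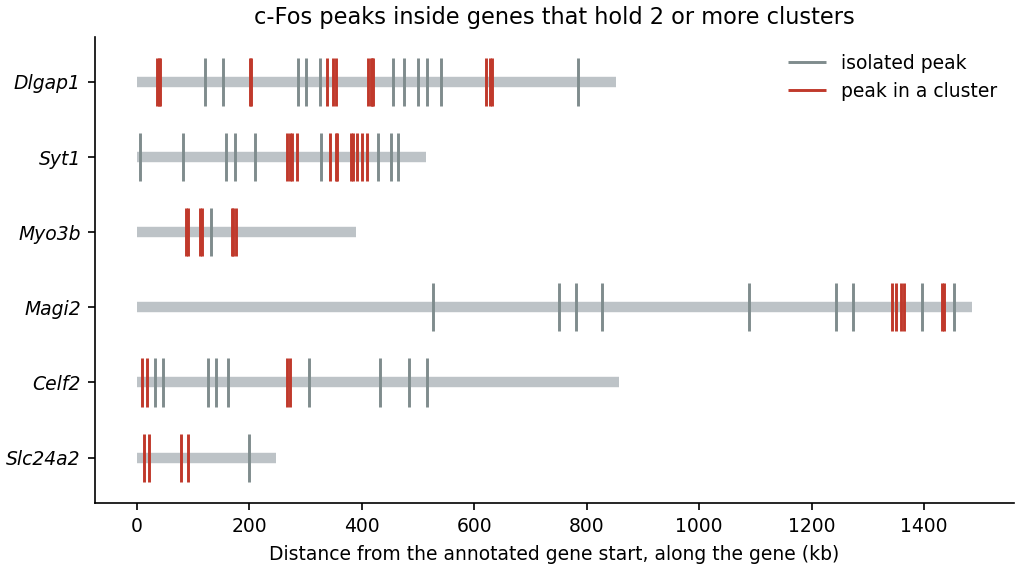
Peaks inside the 6 genes that held 2 or more clusters and whose strand was known, drawn by distance from the annotated gene start (kb) along the gene (grey bar), with clustered peaks in red and isolated peaks in grey. The clusters of Syt1 and Myo3b sit close together, those of Dlgap1 are spread over 599 kb, and those of Magi2 lie toward the far end of the gene.

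Some clusters had another cluster close by. A second one lay within 100 kb of 35 of the 204 and within 500 kb of 68, while the median distance to the nearest other cluster was 1430 kb. The closest were 2 clusters beyond the end of Hivep2, a zinc finger factor gene on chromosome 10. They held 3 and 2 peaks, were 12.2 kb apart and lay 28.7 and 58.1 kb from the gene. A peak of 4402 bp in the second was the fifth widest of all clustered peaks.

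Relative to protein-coding genes, 101 clusters (49.5%, interval 42.5 to 56.6) had every peak midpoint inside the same gene, 85 (41.7%) had none inside a gene, 17 (8.33%) had some inside and some outside, and in 1 the peaks lay in the neighbouring genes Lpxn and Zfp91. By peaks, 250 of 455 clustered peaks (54.9%, interval 50.2 to 59.6) were inside a gene, against 1468 of 2839 isolated peaks (51.7%, interval 49.9 to 53.6). These intervals overlap. The excess of 3.24 percentage points was 0.737 points without the peaks inside Dlgap1 and Syt1, which were picked for their many clusters. The difference was not tested.

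Genes that hosted a cluster were long. The 85 different genes that held all peaks of a cluster had a median length of 222 kb, from 7.14 kb (Ensa, a phosphatase regulator) to 1973 kb (Dlg2, a scaffold protein gene). The 104 genes with at least 1 clustered peak inside (0.483% of 21523 protein-coding genes) had a median of 154 kb. Those with only isolated peaks inside, 1083 genes, had 125 kb, and all protein-coding genes 17.4 kb. A longer gene offers more room for neighbouring peaks, and the part of length in these counts was not tested. Along the gene, 15 of 77 clusters in a gene of known strand lay in the first 25% of its length, 26 and 23 in the next 2 stretches of 25%, and 13 in the last.

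Few clusters were at the ends of protein-coding genes. The midpoint was at most 1 kb from a gene's start or end in 20 clustered peaks (4.40%, interval 2.71 to 6.71) and 200 isolated peaks (7.04%, interval 6.13 to 8.05). Of those 20 peaks, 12 were at the start of the gene, 4 at its far end and 4 at genes of unknown strand, against 143, 18 and 39 of the isolated peaks. Promoter windows were overlapped by 22 clustered (4.84%) and 219 isolated peaks (7.71%, interval 6.76 to 8.76), and the interval for clustered peaks was 3.05 to 7.23. These intervals overlap.

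By cluster, 19 of 204 (9.31%) reached a gene end with at least 1 peak. Some of these genes encode homeobox, forkhead or T-box factors and are described first. They were picked after their values were seen, and the share of such genes at isolated peaks or among all genes was not counted, so nothing is read from their number. The Foxd1 cluster (chr13:98353351-98364740) was the only cluster with 2 peaks at gene ends, of 2477 bp centred 344 bp into the gene and of 2268 bp 770 bp past its end. Isl1, a LIM homeobox gene of motor neuron and islet development, had a peak of 3509 bp centred 121 bp inside its start and a second peak 171 bp further out. At Otp, a homeobox gene of hypothalamic neurons, a peak of 4981 bp was centred 983 bp into the gene, with 2514 bp more in the same gene. Tbx18 had a peak of 2444 bp at its start (40.0 bp) and another 3.65 kb into the gene.

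The neighbouring homeobox genes Hmx2 and Hmx3 shared a pair: a peak of 1226 bp lay 296 bp from the far end of Hmx3, and a peak of 3174 bp lay inside Hmx2. The peak of 3174 bp overlapped a promoter window of Hmx2. Pou4f1, a POU factor gene of sensory neurons, had a peak of 2941 bp centred 124 bp inside its far end and another of 2171 bp 2.80 kb beyond. The peak of 2171 bp overlapped a promoter window of another gene, D130079A08Rik. Shox2, Foxa1 and Hlx, also picked in the same way, had clusters without a midpoint within 1 kb of an end. At Shox2, a gene of 10.0 kb, peaks of 3780 and 5309 bp covered 98.2% of the cluster's span of 9.25 kb. Foxa1 had peaks of 1736, 1962 and 2739 bp around its far end, over 7.39 kb. Hlx, a homeobox gene of gut and liver development, had a peak of 1879 bp inside the gene and another of 2123 bp centred 1199.5 bp upstream.

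Further clusters at gene ends were at Dlx2 (described with the gene lists), Scg2, Cracdl, Serpinb7, Ensa, Xirp1, Trim9, Gzmn, Klf10, Colec10, Dnal4, Pkp2 and Zfp91. The Scg2 cluster was a pair (chr1:79431091-79440824): a peak of 1585 bp was centred 5.5 bp outside the start, over the promoter shown above, and a peak of 2233 bp lay 2.16 kb past the far end of the gene, so the pair bracketed the gene. At Trim9 the peaks of 3559 and 1601 bp were only 175 bp apart. Pkp2, which encodes plakophilin 2 of desmosomes, had 3 peaks of 1261, 1331 and 1077 bp over 8.35 kb.

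Outside protein-coding genes, clusters were often far from the nearest protein-coding gene. Distances here leave out other gene types, and some of these clusters overlapped the promoter window of such a gene, as at Gm40750 and Gm33045. The 85 clusters with no peak in a protein-coding gene had a median distance of 102 kb to the nearest gene end (quartiles 24.1 and 168 kb), and 43 were beyond 100 kb. The farthest was a pair on chromosome 8 (7239921 to 7243746), 1374 kb from Efnb2, followed by a pair on chromosome 2 that was 1102 kb from Celf2 (8497912 to 8501860). By peaks, 97 clustered peaks (21.3%, interval 17.6 to 25.4) were outside genes and beyond 100 kb of an end, against 540 isolated peaks (interval 17.6 to 20.5%).

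Several clusters outside genes lay along the same stretch of chromosome 10. Peaks of 736, 1786 and 1452 bp lay within 5.81 kb (98207817 to 98213626), the shortest span of any cluster of 3. The nearest protein-coding gene end, that of Ccer1, was 513 kb away. Farther along, 2 clusters of 3 spanned 19.5 and 18.7 kb and lay 396 and 108 kb from Atp2b1, which encodes a calcium pump of the plasma membrane. On chromosome 14, 2 clusters of 3 lay 216 and 160 kb beyond the end of Spry2, which encodes an inhibitor of growth factor signalling, and were 41.6 kb apart. On chromosome 13, the cluster with the Gm33045 promoter (110625434 to 110634891) lay 226 kb from Plk2, an activity-induced kinase gene.

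Of the other clusters of 3 outside protein-coding genes, those described next were mostly beyond 100 kb of the nearest protein-coding gene. Peaks over 12.2 kb on chromosome 2 (108022265 to 108034456) lay 696 kb from Kcna4, a potassium channel gene, and those over 18.7 kb (148634078 to 148652766) lay 20.7 kb from Nxt1, a gene of RNA export. On chromosome 3, peaks over 13.6 kb (80533427 to 80547074) lay 135 kb from the far end of Gria2, an AMPA receptor subunit gene. The clusters with Arrdc4 and Sugct as nearest gene were 157 and 203 kb from it and spanned 8.77 and 14.0 kb.

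The widest peak in any cluster of 3 lay inside Clstn2, which encodes a calsyntenin of the postsynaptic membrane. The 3 peaks were 1988, 3752 and 2287 bp wide over 21.1 kb (chr9:97514233-97535314), 509 kb from the gene start. Ptpdc1, a phosphatase gene, had peaks over 17.1 kb, and Ubr1, a ubiquitin ligase gene, over 7.69 kb. At Dgki, a diacylglycerol kinase gene, 1 peak of 3 was inside the gene and 2 neighbours were 181 bp apart. At Il1a, the interleukin 1 alpha gene, 1 peak of 3 was inside.

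The last comparison set the clusters against lists of genes of neuronal activity, synapses and cell types. Of all 21523 protein-coding genes, 322 (1.50%) had a clustered peak inside or within 100 kb of an end. A peak of any kind at that distance was found for 4694 (21.8%), so 6.86% of genes with a peak had a clustered one. In 18 gene lists with 388 different genes, 25 genes had a clustered peak, and 8 lists had none. The lists were drawn up with earlier results of these data known, and the counts were not tested.

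Activity-induced transcription factor genes had clustered peaks at 4 of 24, and 9 more had isolated peaks only, among them Fos, Jun, Junb and Fosl2. Klf6, a zinc finger factor, had both peaks of a pair inside the gene, 2.30 and 4.79 kb from its start (1607 and 736 bp wide, chr13:5862991-5866649). Klf10, a related factor that responds to TGF-beta, had peaks of 1655 and 1627 bp 309 bp apart across an end of the gene (chr15:38298589-38302179). The clusters of Atf3 and Egr2 lay upstream, with nearest peaks at 40.8 and 47.0 kb. Atf3 is a factor of the stress response, and Egr2 a zinc finger factor known from myelination and hindbrain patterning.

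Of activity-induced effector genes, 3 of 35 had clustered peaks and 14 had isolated peaks only, including Arc, Bdnf and Homer1. Inhba, which encodes the activin A subunit, had a pair inside the gene at 3.42 and 5.65 kb from the start (1511 and 1072 bp). Scg2 had the pair described above. The pair of Rgs4, a brake on G protein signalling, was 83.6 and 92.9 kb upstream.

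Counts for synaptic genes varied by class. Postsynaptic scaffold genes had clustered peaks at 4 of 19 (Dlg2, Dlgap1, Dlgap2 and Magi2), and GABA receptor genes at 3 of 14. Median gene length was 151 kb in the scaffold list and 160 kb in the GABA receptor list. It was 17.4 kb for all protein-coding genes, and the part of length in these counts was not tested. The Dlg2 pair (1414 and 1051 bp) lay 733 kb into the gene, and the Dlgap2 pair was 1340 and 3277 bp wide. In Gabra2, the alpha 2 subunit gene, 3 peaks of 998, 1536 and 2024 bp lay 17.1, 23.5 and 33.6 kb from the start. Gabrb1 had peaks of 1057 and 2145 bp 179 bp apart. Genes of vesicle release had 3 of 28 (Syt1, Erc2 and, 93.6 kb upstream, Unc13b) and glutamate receptor genes 2 of 24, Grin2b and the AMPA receptor subunit gene Gria1. The pair counted for Unc13b was nearer to other genes, with 1 peak inside Dnajb5 and the other 2.17 kb from the end of Phf24. The peaks of Grin2b were 2849 and 1645 bp in its first pair and 2981 and 1743 bp in the other, and those of Gria1 1721 and 1704 bp. Genes of synaptic adhesion and axon guidance had 0 of 46, which allows up to 7.71% (exact interval), although 29 of them had an isolated peak and the median length of the list was 689 kb. This count holds for the listed genes only: the cadherin gene Cdh6, which is not on the list, held a pair of 2016 and 1275 bp, as Clstn2 held the 3 peaks above. Calcium and sodium channel genes had 0 of 19, and genes of kinases, cyclic nucleotide and calcium release signalling 0 of 28, with isolated peaks at 8 and 18. These counts, too, hold for the listed genes only. The unlisted sodium channel subunit gene Scn3b lay 51.4 kb from a clustered peak. Unlisted kinase genes with clustered peaks included Dclk1, Lrrk2 and Adk, which each held a pair, and Dgki, which held 1 such peak. Potassium and HCN channel genes had 1 of 26 (Kcnd2, peaks of 2525 and 1303 bp), with a further pair, of 2453 and 1788 bp, in the unlisted channel gene Kcnc4, and RNA-binding protein genes 1 of 20 (Celf2). Differences between lists were not tested.

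Markers of cell types were read against the same 1.50% of all protein-coding genes. Pyramidal neuron markers had 0 of 18, with isolated peaks at 5, and markers of dentate gyrus and CA3 had 0 of 14, with isolated peaks at 4. Among interneuron markers, 3 of 22 (13.6%, interval 2.91 to 34.9) had clustered peaks and 9 more had isolated peaks only. Dlx1 and Dlx2 share a single pair, of 2022 and 1947 bp, and the pair at Sst was 95.3 kb away. The lists also differed in peaks of any kind within 100 kb, found for 12 of 22 interneuron and 5 of 18 pyramidal markers. Microglia markers had 1 of 14 (7.14%, interval 0.181 to 33.9), Cx3cr1 at 35.6 kb from a pair whose nearest gene was Xirp1. Another 2 microglia markers had isolated peaks only. Markers of astrocytes, oligodendrocytes and vascular cells had 0 of 14 each, which allows up to 23.2% (exact interval), with isolated peaks at 4, 3 and 3. Binding near a marker does not show that the marker was expressed, and the part of other cell types was not tested.

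**Figure D5:**
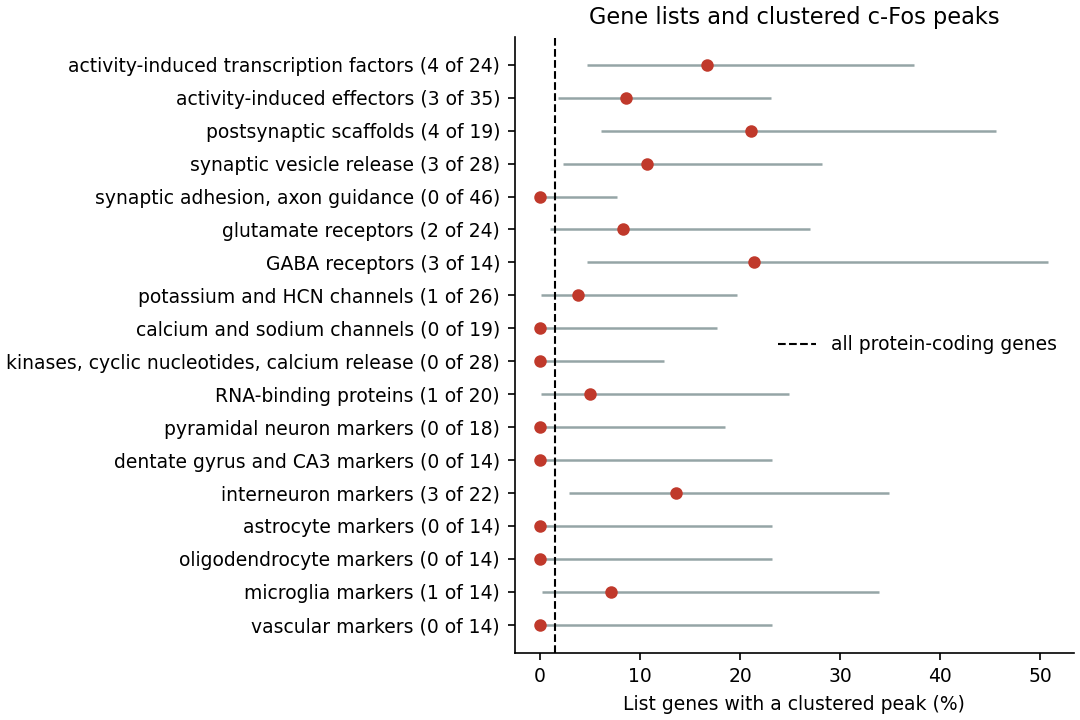
Share of each gene list with a clustered peak inside or within 100 kb of an end (red points, %), with exact 95% binomial intervals (grey lines) and the share of all protein-coding genes, 1.50%, as a dashed line. The highest points are GABA receptors (3 of 14) and postsynaptic scaffolds (4 of 19), and the intervals are wide.

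Hairpins of microRNAs were within 10 kb of 1 cluster. Those of Mir215 and Mir194-1 on chromosome 1 lay 2.72 and 3.01 kb, between midpoints, from a peak of the pair inside Iars2 (chr1:185315907-185320442). Iars2 encodes a mitochondrial tRNA synthetase.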

How the data were processed

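The authors deposited 1 peak list, with chromosome, start and end and no score or other value, attached to a c-Fos sample after kainic acid. Its file name calls the peaks replicated. The tools named in the submitters' processing notes are SEACR 1.1, bedtools 2.27.1, Bowtie2 2.2.9 and Trimmomatic 0.36, and the builds mm10 and sacCer3. Tool settings and the way of combining replicates were not given in the sources used here. Read depth is unknown, and intervals cover counting over peaks or genes only. All intervals over peaks treat peaks as independent, which members of the same cluster are not.

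Peaks on 20 chromosomes were sorted by midpoint and chained (Python 3.11.15, pandas 2.3.3, scipy 1.17.1); 1 peak on an unplaced sequence was left out. Genes were 21523 protein-coding RefSeq genes (GRCm38.p6), leaving out starts below 3000000. Strand, from the promoter table, was known for 17274. Distances of peaks to genes were taken from the peak midpoint. Chaining was tested on simulated data. Intervals of shares are exact (Clopper-Pearson) at 95% and those of medians are from order statistics. Genes named are those in or nearest to clusters of 4 or more peaks, the 10 shortest clusters of 3 or more, the 10 longest, those with the widest peaks or several peaks at gene ends, and up to 6 per list, with others chosen after their values were seen. The members and lists were chosen with earlier results of these data known. Values of some single genes are not reported here.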

Additional observations from a re-analysis of the deposited data

How the results depend on the processing

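No paired analysis was possible because the table holds positions for the group as a whole, and for the same reason no replicate could be left out. Leaving out Dlgap1 and Syt1 and the narrower AP-1 motif were chosen after seeing the data. The neighbour distance moved the counts by construction. At 5 kb, 6.92% of peaks formed 107 clusters, 11 of them of 3 or more, with a median span of 4.96 kb. At 25 kb, 22.6% formed 320 clusters, 73 of 3 or more, spanning 14.1 kb. Among peaks above the median width (fewer peaks), 12.4% formed 91 clusters, 16 of 3 or more, spanning 9.19 kb. The share was 15.1% with distance taken from peak end to next peak start and 12.5% with peaks under 500 bp apart merged. The share of clusters at a gene end became 18.1% with all gene types and 17.2% with ends counted to 5 kb. The width difference of 191 bp ranged from 163 to 215 bp and the excess inside genes from 0.737 to 4.69 percentage points. Listed genes with a clustered peak numbered 19 with a link of 10 kb and 23 without Dlgap1 and Syt1. The stricter AP-1 letters were in 11.5% of windows. Peaks below the authors' unknown threshold are missing, so a cluster may lack members.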
